A study of Mus musculus with 10 samples.

Results

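The 10 genes described here encode sensors of foreign or misplaced nucleic acid, their adaptors and 2 enzymes that keep the cell's own nucleic acid from being sensed. They were chosen by name, with earlier results of these data known: Ddx58 (RIG-I), Ifih1 (MDA5), Dhx58 (LGP2), Mavs, Tlr3, Mb21d1 (cGAS), Tmem173 (STING), Zbp1, Adar and Trex1. All 10 were found among the 23420 gene rows of the deposited counts, and 9 of them, all but Zbp1, were among the 15265 genes with enough counts to test. RNA came from a preparation of spermatogenic cells from testes of mice aged 18 postnatal days, on a mixed background, in 5 libraries labelled Ino80cKO and 5 labelled Ino80WT. Ino80cKO denotes a testis-specific deletion of Ino80, a chromatin remodeller, made with Stra8-Cre, which is active in male germ cells. Somatic cells of these testes would keep the gene. Whether the Ino80WT mice carried a floxed allele or the Cre, and whether a library came from 1 animal or several, is not stated by the labels. The comparison asks how the transcripts of these 10 genes differ between the labels.

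Cells keep many of these sensors at low levels until interferon induces them. RIG-I and MDA5 bind viral or other double-stranded RNA in the cytosol and pass the signal to MAVS on the mitochondrial surface, and LGP2, which lacks the signalling domains of its relatives, modulates both. cGAS binds DNA in the cytosol and makes a cyclic dinucleotide that activates STING. TLR3 reads double-stranded RNA in endosomes, and ZBP1 binds Z-form nucleic acid. ADAR edits adenosines in double-stranded RNA and TREX1 degrades DNA, and the loss of either leads to interferon production in mice.

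Because several of these genes are textbook targets of interferon-responsive transcription factors, their promoters were searched for the core of the interferon-stimulated response element, GAAANNGAAA, on both strands. Windows ran from 250 bases before to 50 after each annotated start (RefSeq, GRCm38.p6), and 7 of the 10 genes had at least 1 window, with Mb21d1 listed as Cgas. Dhx58, Zbp1 and Tmem173 were not among them. The core was present in Ddx58 and Ifih1, which is 2 of 7 genes, beside 3.99% of 27025 genes with a window. A shorter form, GAAANNGAA, which every match of the longer one contains, was searched after the sequences had been seen. It was present in Ddx58, Ifih1 and an internal start of Adar, beside 9.76% of all genes. The 3 windows with a match are shown in the listed direction of the gene, with matches in capitals. Mavs, Tlr3 and Mb21d1, whose transcripts also rose, had no match of either form, and neither had Trex1 or the other Adar windows. For the Adar window shown, a check of the direction against annotated transcripts was unclear.
Ddx58: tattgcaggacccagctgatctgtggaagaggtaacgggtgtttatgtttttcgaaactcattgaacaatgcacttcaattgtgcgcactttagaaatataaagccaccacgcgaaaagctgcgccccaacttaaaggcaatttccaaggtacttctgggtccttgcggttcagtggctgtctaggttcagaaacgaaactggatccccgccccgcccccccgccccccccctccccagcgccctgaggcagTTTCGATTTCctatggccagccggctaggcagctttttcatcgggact
Ifih1: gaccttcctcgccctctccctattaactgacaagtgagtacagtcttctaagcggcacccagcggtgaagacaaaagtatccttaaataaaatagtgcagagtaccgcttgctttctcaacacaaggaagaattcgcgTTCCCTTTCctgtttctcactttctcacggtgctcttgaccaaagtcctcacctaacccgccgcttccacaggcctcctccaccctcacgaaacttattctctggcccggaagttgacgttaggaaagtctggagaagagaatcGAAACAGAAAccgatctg
Adar: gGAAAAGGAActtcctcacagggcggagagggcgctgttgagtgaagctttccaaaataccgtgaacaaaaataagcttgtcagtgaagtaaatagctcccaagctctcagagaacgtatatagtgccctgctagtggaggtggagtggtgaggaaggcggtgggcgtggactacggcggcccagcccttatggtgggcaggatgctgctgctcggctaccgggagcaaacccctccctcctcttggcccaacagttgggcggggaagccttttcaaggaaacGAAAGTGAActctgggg
The Ddx58 window is chr4:40239776-40240075 on the minus strand, the Ifih1 window chr2:62646206-62646505 on the minus strand, and the Adar window chr3:89730468-89730767 on the plus strand. In Ddx58 the match lies on the opposite strand just after the start. Ifih1 has the 10-letter match downstream of the start and a 9-letter match upstream of it on the opposite strand, and Adar has a 9-letter match near each end of its window. A match says only that these letters are present.

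Gene counts per library ranged from 16750609 to 23700094, so that 3 counts, taken as the floor, were 0.117 to 0.189 CPM, a limit that covers counting error only. CPM here are counts scaled to library size with TMM factors. Log2 fold changes are Ino80cKO over Ino80WT with their SE, errors of CPM are SD, and n = 5 libraries per group. Adjusted p-values come from the quasi-likelihood test of edgeR, with the Benjamini-Hochberg method over all 15265 genes, and 0.05 was the threshold. Since nothing says that libraries came from separate animals, p-values measure the spread between libraries, which may be technical. The count of Ino80 itself was 96.0 ± 1.37 CPM in Ino80cKO and 94.9 ± 12.6 CPM in Ino80WT (log2 0.02 ± 0.09, adjusted p = 0.889). The deleted part of the gene is not given, so this count does not check the labels. Pachytene spermatocyte markers were present in every library. Their summed level was 2943 to 4354 CPM in Ino80cKO and 6115 to 9715 CPM in Ino80WT. Of the 18 markers, 17 were lower in Ino80cKO, beside 27.6% of all tested genes. In bulk RNA, fewer cells of a type and less RNA per cell cannot be told apart.

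Most of the sensors and adaptors were higher in Ino80cKO, and 1 of them, Dhx58, was lower. Of the 9 tested, 7 rose (Ddx58, Ifih1, Mavs, Tlr3, Adar, Mb21d1 and Tmem173), 1 fell (Dhx58) and 1 did not pass (Trex1). The call of Tmem173 was lost when any of several libraries was left out. Among all tested genes 45.9% changed, 18.3% rising and 27.6% falling. That balance depended on the scaling: with TMM factors 2793 genes rose and 4220 fell, against 5484 and 2938 under library totals and 4886 and 3183 under upper-quartile factors, while the members' counts were 7 and 1 under each. The median log2 fold change of the 9 was 0.60, beside 0.02 over all tested genes. In 5 members, Ddx58, Ifih1, Mavs, Tlr3 and Adar, every Ino80cKO library lay above every Ino80WT library, as in 9.96% of all tested genes, and in Dhx58 every one lay below, as in 22.0% (32.0% in either direction). For these 6 genes the exact permutation test of CPM (two-sided, over libraries) gave p = 0.00794, the smallest it can give, without adjustment for the 10 genes tested this way. Groups of 5 that do not overlap always give this value, so it only restates the separation.

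**Figure D1:**
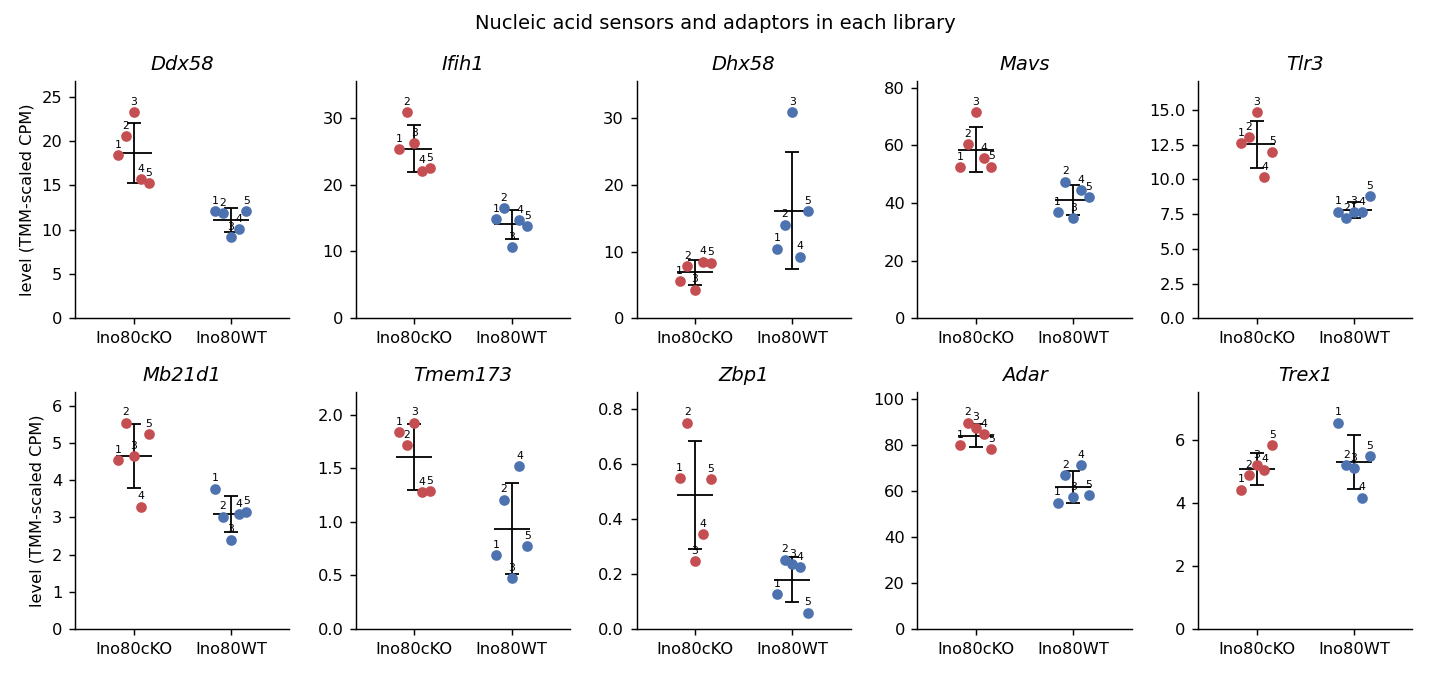
Level of each of the 10 genes in TMM-scaled CPM (vertical axes, linear, each from 0) in the 5 Ino80cKO and the 5 Ino80WT libraries; points are libraries numbered by replicate, the bar is the mean and whiskers are the SD. The groups do not overlap in Ddx58, Ifih1, Mavs, Tlr3 and Adar (higher in Ino80cKO) and Dhx58 (lower in Ino80cKO), and Ino80WT library 3 stands highest in Dhx58 at 30.9 CPM.

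Of the RIG-I-like receptors, Ddx58 and Ifih1 rose and Dhx58 fell. Ddx58 (chromosome 4, positions 40203773 to 40239828, GRCm38) had 18.4, 20.6, 23.3, 15.8 and 15.3 CPM in Ino80cKO libraries 1 to 5, against 12.1, 11.9, 9.2, 10.03 and 12.1 CPM in Ino80WT libraries 1 to 5. The groups were apart, with Ino80cKO library 3 the highest and Ino80WT library 3 the lowest. The rise was 1.69-fold (log2 0.76 ± 0.13, adjusted p = 0.000782).

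Ifih1 (chromosome 2, positions 62595798 to 62646255), the sensor of long double-stranded RNA, had 25.3, 30.9, 26.2, 22.1 and 22.4 CPM in Ino80cKO, against 14.8, 16.5, 10.6, 14.7 and 13.8 CPM in Ino80WT. Again no library of one group reached the other. It rose 1.81-fold (log2 0.85 ± 0.13, adjusted p = 0.000271), the largest log2 rise among the 9 members tested, with a 95% interval from 0.57 to 1.13. The ratio of Ifih1 to Ddx58 counts within a library, which no scaling affects, was 1.12 to 1.50 in Ino80cKO and 1.14 to 1.47 in Ino80WT, so that the groups overlapped.

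Dhx58 (chromosome 11, positions 100694884 to 100704271) had 5.52, 7.84, 4.30, 8.49 and 8.35 CPM in Ino80cKO, against 10.4, 14.0, 30.9, 9.22 and 16.1 CPM in Ino80WT. Every Ino80cKO library lay below every Ino80WT library, and the Ino80WT libraries were widely spread, with library 3 far above the rest. The fall was 2.35-fold (log2 -1.23 ± 0.32, adjusted p = 0.00802), with a 95% interval from -1.92 to -0.54. Without Ino80WT library 3 it was log2 -0.85 (adjusted p = 0.00886). The ratio of Dhx58 to Ifih1 counts was 0.164 to 0.384 in Ino80cKO and 0.626 to 2.92 in Ino80WT, a difference in which scaling plays no part. Annotated exons of an antisense gene, Dhx58os, share 4.3% of the exonic bases of Dhx58, and the strand setting of the counting is not given.

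The order of the Ino80WT libraries by Dhx58 was 3, 5, 2, 1 and 4 from the highest down, and their order by the summed level of the 18 pachytene markers was the same. In Ino80cKO the order was 4, 5, 2, 1 and 3 by Dhx58 and 5, 4, 1, 2 and 3 by the pachytene sum. Those markers included Ldhc, the lactate dehydrogenase of germ cells, at 320 ± 90.7 CPM in Ino80cKO and 1069 ± 276 CPM in Ino80WT (3.34-fold lower, adjusted p = 0.000117). The falls of the 18 markers ran from 1.20-fold (H2afx, which did not pass, adjusted p = 0.0514) to 3.39-fold (Adam3), so Ldhc was among the largest. The part of these markers in the fall of Dhx58 was not tested. Ino80WT library 3, the highest of all in Dhx58 and in the pachytene sum, was the lowest Ino80WT library in Ddx58, Ifih1, Mavs, Mb21d1 and Tmem173. It was not the lowest in Tlr3, Adar, Trex1 or Zbp1.

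**Figure D2:**
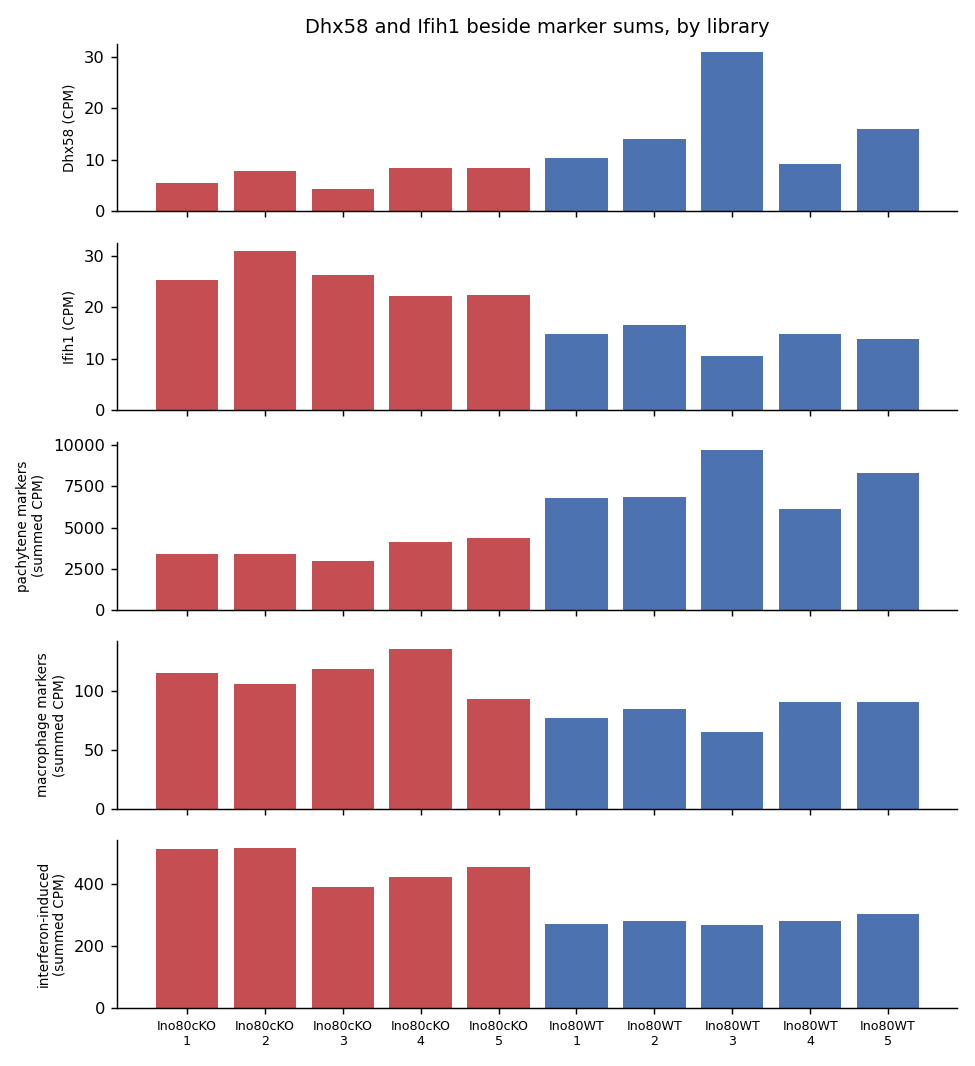
Dhx58 and Ifih1 in CPM, and the summed CPM of the pachytene spermatocyte markers, the macrophage markers and the interferon-induced genes (vertical axes, linear, from 0), in each of the 10 libraries as bars. Dhx58 and the pachytene sum are lower in all 5 Ino80cKO libraries and highest in Ino80WT library 3, whereas Ifih1, the macrophage sum and the interferon-induced sum are higher in all 5 Ino80cKO libraries.

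The adaptor of both signalling RIG-I-like receptors rose as well. Mavs (chromosome 2, positions 131234063 to 131248025) had 52.6, 60.4, 71.6, 55.6 and 52.6 CPM in Ino80cKO, against 36.9, 47.4, 34.7, 44.4 and 41.9 CPM in Ino80WT. The groups were apart, though the lowest Ino80cKO library and the highest Ino80WT library were close. It rose 1.43-fold (log2 0.51 ± 0.11, adjusted p = 0.0026). The ratio of Ddx58 to Mavs counts was 0.283 to 0.351 in Ino80cKO and 0.226 to 0.328 in Ino80WT, and the groups overlapped.

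Tlr3 (chromosome 8, positions 45395665 to 45411080), the endosomal receptor that signals through its own adaptor TICAM1 and not through MAVS, had 12.6, 13.0, 14.9, 10.2 and 12.0 CPM in Ino80cKO, against 7.67, 7.20, 7.69, 7.66 and 8.81 CPM in Ino80WT. Its Ino80WT libraries were the closest together among the members, with an SD of 7.68% of the mean. It rose 1.61-fold (log2 0.68 ± 0.11, adjusted p = 0.000535).

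Both genes of the cytosolic DNA arm were at low levels and rose. Mb21d1 (chromosome 9, positions 78430526 to 78443237) had 4.54, 5.55, 4.64, 3.29 and 5.24 CPM in Ino80cKO, against 3.77, 3.02, 2.40, 3.09 and 3.16 CPM in Ino80WT. Ino80cKO library 4 fell within the Ino80WT range and the other 4 lay above it, and the rise was 1.51-fold (log2 0.60 ± 0.17, adjusted p = 0.0126; exact two-sided permutation test p = 0.0159).

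Tmem173 (chromosome 18, positions 35733679 to 35740554) had 1.84, 1.72, 1.93, 1.28 and 1.28 CPM in Ino80cKO, against 0.692, 1.21, 0.472, 1.52 and 0.774 CPM in Ino80WT, from 177 counts in all in Ino80cKO and 92 in Ino80WT. The groups overlapped, with 3 Ino80cKO libraries above every Ino80WT library. The fold change of 1.70 (log2 0.77 ± 0.29) passed narrowly (adjusted p = 0.0431; exact two-sided permutation test p = 0.0317). The call was lost without any 1 of Ino80cKO libraries 1, 2 and 3 or Ino80WT libraries 1, 3 and 5 (adjusted p = 0.0757 to 0.0914), and without Ino80WT libraries 1 and 2 together (log2 0.84, adjusted p = 0.0716). At these counts the size of the rise is poorly known, with a 95% interval of the log2 fold change from 0.15 to 1.39.

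Zbp1 (chromosome 2, positions 173206612 to 173218923) was close to the floor and did not pass the count filter. It had 14, 17, 5, 7 and 11 counts in the 5 Ino80cKO libraries, against 2, 5, 5, 5 and 1 counts in the 5 Ino80WT libraries. Per scaled count, the sum of 54 over the sum of 18 gives a ratio of 2.64, with an exact 95% interval from 1.53 to 4.79 that covers counting error only. Ino80cKO library 3, at 0.247 CPM, lay within the Ino80WT range of 0.0595 to 0.252 CPM, and the other 4 lay above it. The exact permutation test (two-sided) gave p = 0.0159 for its CPM. With no low-count filter edgeR gave log2 1.40 (adjusted p = 0.0173).

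Of the genes that limit sensing, Adar rose and Trex1 did not pass. Adar (chromosome 3, positions 89715022 to 89753446) had 79.9, 89.7, 87.5, 84.7 and 78.1 CPM in Ino80cKO, against 54.9, 66.8, 57.2, 71.1 and 58.1 CPM in Ino80WT. The groups were apart, and the rise of 1.36-fold (log2 0.45 ± 0.08, adjusted p = 0.00113) was the smallest of the 7. Counts are per gene, so the interferon-inducible long form of ADAR and the constitutive short form cannot be told apart. The opposite-strand gene Chrnb2 shares 16.8% of the exonic bases of Adar in GENCODE M21, and its own level was 4.49 ± 0.417 CPM in Ino80cKO and 4.11 ± 0.776 CPM in Ino80WT (adjusted p = 0.518).

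Trex1 (chromosome 9, positions 109057933 to 109059734) had 4.42, 4.89, 5.18, 5.06 and 5.83 CPM in Ino80cKO, against 6.54, 5.18, 5.09, 4.16 and 5.48 CPM in Ino80WT. The groups overlapped throughout, with a log2 fold change of -0.06 ± 0.14 (adjusted p = 0.752) and a 95% interval from -0.36 to 0.24. All exonic bases of Trex1 also lie in exons of Atrip in GENCODE M21, so its count depends on an annotation that is not given. Atrip, which recruits the ATR kinase to DNA damage, fell to 23.1 ± 2.65 CPM in Ino80cKO, against 31.1 ± 2.22 CPM in Ino80WT (log2 -0.43, adjusted p = 0.0029).

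**Figure D3:**
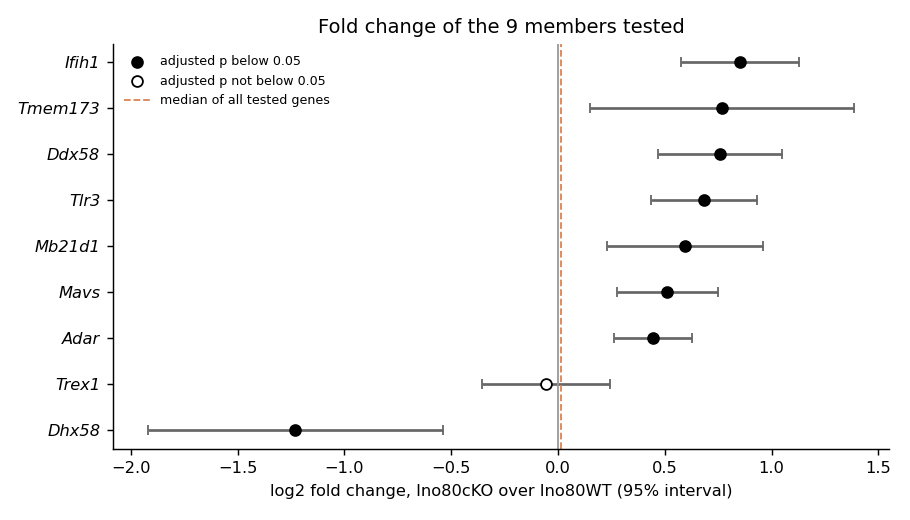
Log2 fold change of Ino80cKO over Ino80WT (horizontal axis) for the 9 members tested, with 95% intervals as whiskers; filled points have an adjusted p below 0.05 and the dashed line is the median of all tested genes, 0.02. The intervals of 7 members lie above 0, that of Trex1 spans 0 from -0.36 to 0.24 and that of Dhx58 runs from -1.92 to -0.54.

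Divided by the union of annotated exon lengths, the levels could be ordered roughly between genes. The lengths are of all annotated forms together in GENCODE M21, while the annotation used for counting is not given. The place of Trex1 is the least sure, since all its exonic bases also lie in exons of Atrip. Mavs was highest in both groups, at 17.5 CPM per kilobase in Ino80cKO and 12.3 in Ino80WT, followed by Adar at 10.4 in Ino80cKO and 7.59 in Ino80WT. In Ino80cKO the next were Trex1 (4.43), Ifih1 (3.11), Ddx58 (2.65), Tlr3 (2.41) and Dhx58 (2.11), and from Ifih1 to Dhx58 each neighbouring pair overlapped over libraries. In Ino80WT Dhx58 came next at 4.93 ± 2.66 CPM per kilobase, overlapping both Adar and Trex1 (4.61), and Ifih1 (1.72), Ddx58 (1.57) and Tlr3 (1.50) followed, each overlapping its neighbour. Mb21d1, Tmem173 and Zbp1 closed the order in both groups, at 1.13, 0.587 and 0.138 CPM per kilobase in Ino80cKO and 0.749, 0.341 and 0.0508 in Ino80WT. Among these levels per length Dhx58 was thus the highest of the RIG-I-like receptors in Ino80WT by its mean and the lowest of them in Ino80cKO.

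Genes whose log2 levels followed a member most closely over the 10 libraries were found by the root mean square difference of mean-centred log2 CPM, as a description. The search left out the members themselves, genes of low average level and symbols of the numbered Gm, LOC and Rik kinds. Centring was over both groups, so a like difference between the labels counts towards closeness. Nearest to Ifih1 were Rassf8 (0.124) and the interferon-induced Oasl2 (0.134), where Ifih1 itself varied by 0.468 about its mean. Nearest to Ddx58 were Ets2 (0.126) and Lrch1 (0.139), and to Dhx58 they were Cacna1i (0.124) and Ulk4 (0.159), where Dhx58 varied by 0.757. Mavs was followed by Usp22 (0.0404) and Snx33 (0.0482), Adar by Plekhg3 (0.044) and Extl3 (0.0479), and Tlr3 by Bmf (0.107) and Cuedc1 (0.108). For Mb21d1 they were Cnn3 (0.114) and Rell1 (0.138), for Trex1 Spaca1 (0.092) and Mfap1a (0.0978), and for Tmem173 Avpr1a (0.225) and Zfp704 (0.237).

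The other sensors of nucleic acid moved in both directions. Of 31 listed, 26 were tested, 11 rose, 5 fell and 10 did not pass, with a median log2 fold change of 0.09 beside 0.02 over all genes, of which 18.3% rose and 27.6% fell (14 higher and 3 lower under scaling by library totals). Eif2ak2, which encodes the double-stranded RNA-dependent kinase PKR, rose to 52.4 ± 5.63 CPM in Ino80cKO, against 35.0 ± 3.33 CPM in Ino80WT (1.50-fold, log2 0.58 ± 0.09, adjusted p = 0.000378). The falls with the smallest adjusted p were of helicases and a DNA end-binding protein with wider roles in RNA metabolism and repair. Ddx1 fell 1.55-fold (adjusted p = 0.000105), Ddx41 1.45-fold (adjusted p = 0.000373) and Xrcc5, which encodes Ku80, 1.41-fold (adjusted p = 0.000159). Tlr7, a single-stranded RNA receptor, was at 0.778 CPM in Ino80cKO and 0.518 CPM in Ino80WT and did not pass (adjusted p = 0.109). Among those that rose were Ifi204, a DNA sensor of the PYHIN family (log2 0.73, adjusted p = 0.0136), and Ddx60 (log2 0.66, adjusted p = 0.00141). In the PYHIN family Ifi203 and Mndal were also called higher, while Aim2 did not pass (log2 0.06, adjusted p = 0.809). Oas1a was called higher (log2 1.84, adjusted p = 0.00123), and Oas3 did not pass (log2 0.02, adjusted p = 0.95). Oas1a had 88 counts in all in Ino80cKO (0.802 CPM) and 21 in Ino80WT (0.229 CPM). Oas1a passed the count filter only through its Ino80cKO libraries, so its call is given as a description only. Its Ino80WT level was near the floor, so the size of its rise is poorly known. Tlr7 and the genes named after it here were picked after their values were seen.

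Among the signalling partners downstream of the sensors, 20 of 43 rose, 8 fell and 15 did not pass, with a median of 0.25, beside 18.3% rising and 27.6% falling among all genes (25 higher and 4 lower under library totals). Only 5 of them fell without any 1 of Ino80cKO libraries 1, 4 and 5 or Ino80WT libraries 2 and 5. Irf3, the transcription factor that MAVS, STING and TICAM1 activate, fell to 55.3 ± 3.31 CPM in Ino80cKO, against 87.8 ± 12.4 CPM in Ino80WT (1.59-fold lower, log2 -0.66 ± 0.10, adjusted p = 0.000211). Myd88, the adaptor of the other nucleic acid receptors of the Toll-like family, fell 1.78-fold (log2 -0.83 ± 0.12, adjusted p = 0.000174). Irak1, a kinase downstream of MYD88, rose 1.66-fold (adjusted p = 0.000175) and Nfkb1, an NF-kappaB subunit, 1.50-fold (adjusted p = 0.000292). Chosen after their values were seen, Tbk1, the kinase that phosphorylates IRF3, had a log2 fold change of -0.11 (adjusted p = 0.176), and Ticam1 rose by 0.53 on the log2 scale (adjusted p = 0.0129).

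Of 25 listed nucleases and other genes that limit sensing, 20 were tested, of which 7 fell, 2 rose and 11 did not pass, with a median of 0.01 (6 lower and 5 higher under library totals). The share that changed was near the 45.9% of all tested genes. Without any 1 of Ino80cKO libraries 1, 2 and 5 or Ino80WT libraries 2, 3 and 5, 1 of them rose. Adad1 and Adad2, testis-specific relatives of ADAR, fell 1.94-fold (adjusted p = 0.000235) and 2.31-fold (adjusted p = 5.56e-05). Adad2 was at 39.6 ± 6.65 CPM in Ino80cKO and 91.5 ± 12.6 CPM in Ino80WT. Rnaseh2c, a subunit of the ribonuclease that removes RNA from DNA, fell 1.78-fold (adjusted p = 0.000128), and Skiv2l, a helicase of the cytosolic RNA exosome, 1.55-fold (adjusted p = 0.000345).

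Most of the interferon-induced genes tested rose. Of 33 listed, 31 were tested, and 24 rose, none fell and 7 did not pass. The median log2 fold change was 0.90, and 18.3% of all tested genes rose. Like the other lists, this one was chosen with earlier results of these data known, so its count is a description only. Oasl2 rose to 44.6 ± 2.95 CPM in Ino80cKO, against 22.4 ± 1.82 CPM in Ino80WT (1.99-fold, adjusted p = 2.99e-05). Rtp4 rose 3.48-fold (adjusted p = 7.1e-05), the guanylate-binding protein gene Gbp7 2.24-fold (adjusted p = 6.45e-05) and Irf9, the DNA-binding subunit of the interferon-activated STAT complex, 1.73-fold (adjusted p = 0.000136). The list includes interferon-gamma targets such as Gbp7, so it does not name the interferon.

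Transcripts of the interferons themselves were at or near 0. Of 11 interferon genes looked up, 6 had no count in any library, a count that allows up to 3, and the other 5 together had 8 counts in Ino80cKO and 10 in Ino80WT. The 6 receptor genes were all tested. Of these, 5 rose, beside 18.3% of all tested genes. They included Ifnar2 (1.39-fold, adjusted p = 0.00577), Il10rb (1.34-fold, adjusted p = 0.00569), Ifngr2 (1.31-fold, adjusted p = 0.0152) and Ifnar1 (1.13-fold, adjusted p = 0.0358).

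**Figure D4:**
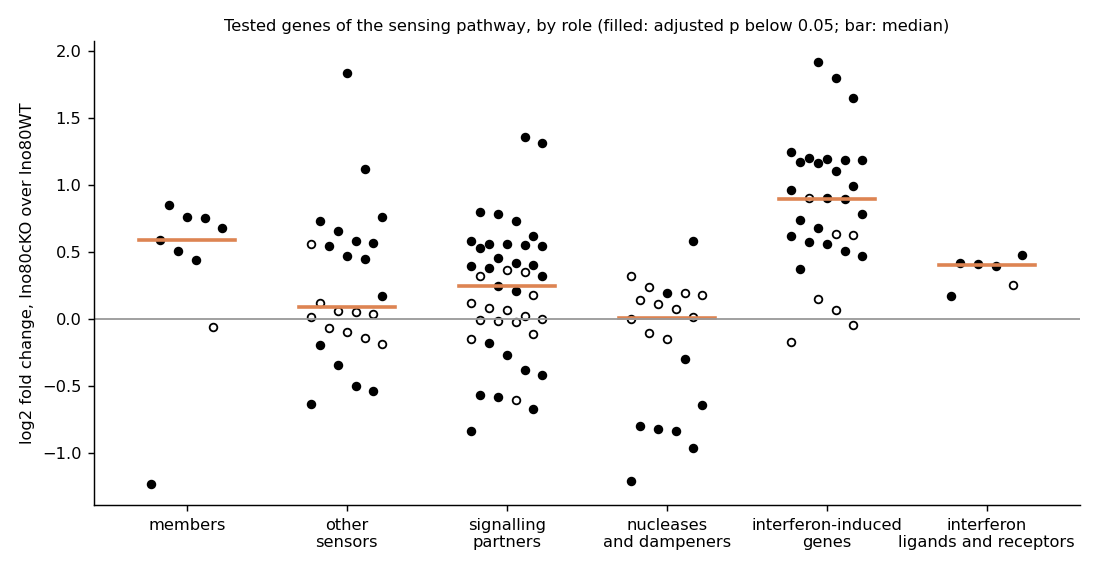
Log2 fold change of Ino80cKO over Ino80WT (vertical axis) for each tested gene of the 10 members and of the lists of other sensors, signalling partners, nucleases and dampeners, interferon-induced genes, and interferon ligands and receptors; filled points have an adjusted p below 0.05 and bars are list medians. The interferon-induced genes have a median of 0.90, the members 0.60, and the nucleases and dampeners 0.01.

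The samples were not sorted for a cell type, and markers of other cells differed between the labels beside these results. The counts of markers called stand beside 18.3% of all tested genes higher and 27.6% lower. The summed level of 16 macrophage markers was 92.9 to 135.3 CPM in Ino80cKO and 65.2 to 90.8 CPM in Ino80WT, 9 of 15 tested were higher and none was lower, and none was at 0 in all libraries. Csf1r, the receptor that macrophages depend on, was at 11.2 ± 0.788 CPM in Ino80cKO and 6.46 ± 1.26 CPM in Ino80WT (1.73-fold, adjusted p = 0.000811). Sertoli markers summed to 4036 to 5300 CPM in Ino80cKO and 2783 to 4165 CPM in Ino80WT, with 7 of 12 higher, and Leydig markers to 159.8 to 265.6 CPM in Ino80cKO and 99.0 to 180.8 CPM in Ino80WT, with 5 of 8 tested higher. Of 3 tested T and NK cell markers none rose and 1 fell, with sums over the list of 8.02 to 9.39 CPM in Ino80cKO and 7.25 to 11.1 CPM in Ino80WT, and of 8 endothelial markers none rose or fell. Of 8 peritubular markers 1 rose, of 4 tested B and dendritic cell markers 1 fell, and of 14 spermatogonial markers 3 rose and 2 fell. Within Ino80cKO the library order by macrophage sum was 4, 3, 1, 2 and 5, by the sum of interferon-induced genes 2, 1, 5, 4 and 3, and by Ifih1 2, 3, 1, 5 and 4. Within Ino80WT it was 5, 4, 2, 1 and 3 by both the macrophage sum and the sum of interferon-induced genes, and 2, 1, 4, 5 and 3 by Ifih1. The macrophage sums of Ino80WT libraries 5 and 4 were nearly equal, at 90.81 and 90.73 CPM. The largest part of the macrophage sum was Mrc1, at 54.8 CPM in Ino80cKO and 48.4 CPM in Ino80WT, which did not pass (adjusted p = 0.318). The part of these cells in the rises was not tested.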

How the data were processed

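The deposited files hold raw whole-number counts of reads per gene symbol for each of 10 polyA RNA libraries, not normalized by the authors. Per the labels' protocols, cells were freed from tubules with collagenase and trypsin and filtered, and libraries were made with a Kapa stranded mRNA kit. TopHat2, HTSeq, DESeq2 and mm10 are named in the submitters' processing notes, without versions or roles. Annotation and strand setting: not given in the sources used here. The 5 rows that name no gene held 35.5% to 44.0% of reads and were left out of library sizes and tests.

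The test was edgeR 4.0.16 (R 4.3.3): filterByExpr on genotype (minimum count 10, minimum total 15), TMM scaling, and glmQLFit and glmQLFTest with robust dispersions and genotype as the only term. SE of log2 fold changes were computed as size over the square root of F. The fit was tested on simulated counts. Log2 CPM used a prior count of 2. Gene models are from GENCODE M21 (GRCm38, the build mm10 names) and promoter windows from RefSeq. No 2 libraries were duplicates (lowest chi-square per degree of freedom 9.4). Alternatives were DESeq2 1.42.0, 3 other scalings, 2 other filters, leaving out Rn45s, a replicate block, and leaving out libraries.

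Named genes are the 10 members, up to 4 genes per list by adjusted p, and the 2 nearest profiles of each member, besides those said to be picked later. Ldhc, Csf1r and Mrc1, from the marker lists, were named outside this rule, as were Ino80 and the genes that overlap members. Members and lists were chosen with earlier results of these data known. Trac was not found among the rows.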

Additional observations from a re-analysis of the deposited data

How the results depend on the processing

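Ddx58, Ifih1, Dhx58, Mavs, Tlr3, Adar and Mb21d1 kept their direction and their call under all 19 alternatives, with Dhx58 between log2 -1.40 and -0.852. Members called higher numbered 6 to 8, where 8 includes Zbp1 without a low-count filter, and 1 was lower throughout. Tmem173 was not called without Ino80WT libraries 1 and 2 (log2 0.841) and in 6 fits that left out 1 library (log2 0.585 to 1.03 over all such fits), and was not tested at a minimum count of 50. The direction of Trex1, never called, turned under library totals (0.12), upper-quartile factors (0.078), without Ino80WT libraries 1 and 2 (0.103), and among fits without 1 library, which ran from -0.134 to 0.0514. Library totals and upper-quartile factors, which moved the median of all genes to 0.191 and 0.152, gave 5484 and 4886 genes higher and 2938 and 3183 lower, so that fewer called genes were lower (34.9% and 39.4%, against 60.2%). With totals 3 other sensors were lower. Lower signalling partners numbered 4 with totals, 5 with RLE or upper-quartile factors, no filter, or a minimum of 50, and 5 to 7 without 1 library. Higher nucleases and dampeners numbered 5 with totals or upper-quartile factors and 1 to 3 without 1 library. Apart from the leave-one-out fits named with them, the cause was not tested.

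Same-numbered libraries did not deviate together (correlations -0.47 to 0.196, and 2 of 10 libraries matched best with their own number), so the numbers were not used as pairs. With the replicate number as a block, 1921 genes were higher and 3572 lower, Tmem173 had log2 0.82 (adjusted p = 0.0766), 5 signalling partners were lower and 1 nuclease or dampener was higher. The other members kept their calls.

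Depth limits Zbp1 (54 counts in Ino80cKO and 18 in Ino80WT), Tmem173 (177 counts in Ino80cKO and 92 in Ino80WT) and the interferon genes, for the last of which a difference was not detectable at this depth.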
